A study of Mus musculus with 8 samples.

Results

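The 10 genes described here, *Gm20559*, *Gm36394*, *Gm52520*, *Gm35266*, *G530011O06Rik*, *Gm32262*, *Gm33869*, *Gm32144*, *Gm33219* and *Gm41607*, are uncharacterised transcripts with placeholder symbols, found by symbol among 40840 genes in the deposited count tables. They were chosen by their counts in these same libraries, which were higher in mutant than in wild type testes, so their genotype difference is given as a description without a test. What the listing did not use is their position, sequence and neighbours, and the behaviour of the other uncharacterised genes. Whole testes were taken 12 days after birth (P12) from 8 mice on a C57BL/6J background, 4 of each genotype lettered A to D, and made into stranded mRNA libraries. Per the study's methods the wild type mice carried 1 floxed *Tra2b* poison exon allele (*Tra2bPE* fl/+) and no Cre, and the *Tra2b-cPEko* mice carried 1 floxed and 1 deleted allele (fl/-) with *Vasa-Cre*. Effects of the exon and of the Cre transgene cannot be told apart between them, and the methods state that the *Vasa-Cre* line came from another strain and was backcrossed for 9 generations. *Vasa-Cre* acts in germ cells, so the somatic cells of the mutant testis kept the floxed copy, and these were libraries of mixed cells. In such bulk libraries fewer cells of a type and less RNA per cell cannot be told apart.

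*Tra2b* encodes a splicing regulator of the SR-like family that binds GAA-rich RNA. Its poison exon carries stop codons, and transcripts that include the exon make no full-length protein and can be removed by nonsense-mediated decay, a loop by which the protein limits its own production. Long noncoding RNAs (lncRNAs) are transcripts without a recognised protein, and the testis is known for expressing many of them, often from places inside repeats or inside the introns of other genes. Symbols made of Gm and a number, or ending in Rik, are placeholders for predicted or cDNA-derived mouse genes, and the roles of the 10 genes are not known.

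Of the 10 genes, 9 are in the RefSeq gene table (GRCm38.p6), 8 as lncRNAs and *Gm41607* as protein-coding. *Gm33869* is in GENCODE vM39 with a type that marks transcripts still to be tested. Each of the 9 has a RefSeq start window, the 250 bases before and 50 bases after its listed transcription start, and every first-listed window had an exact match in GRCm39, which gives the positions here. Repetition was measured as the share of the 24-base words of a window that occur at 10 or more places of GRCm39 on either strand, and a window was called mostly repeated at 50% or more. By this measure 4 of 9 windows were mostly repeated (44.4%), against 0.747% of the 14463 windows of tested genes and 3.79% of the 2322 windows of other tested uncharacterised genes. The share was 90.3% in *Gm32144*, 84.1% in *Gm41607*, 81.9% in *Gm33219* and 51.6% in *Gm52520*, and it was 41.2% in *Gm32262* and 0% in the remaining 4. The 4 mostly repeated windows are printed 5′ to 3′ to show the repeated DNA at their starts, and capitals mark the bases inside words found at 10 or more places.
Gm33219, chr6:52953485-52953784, minus strand: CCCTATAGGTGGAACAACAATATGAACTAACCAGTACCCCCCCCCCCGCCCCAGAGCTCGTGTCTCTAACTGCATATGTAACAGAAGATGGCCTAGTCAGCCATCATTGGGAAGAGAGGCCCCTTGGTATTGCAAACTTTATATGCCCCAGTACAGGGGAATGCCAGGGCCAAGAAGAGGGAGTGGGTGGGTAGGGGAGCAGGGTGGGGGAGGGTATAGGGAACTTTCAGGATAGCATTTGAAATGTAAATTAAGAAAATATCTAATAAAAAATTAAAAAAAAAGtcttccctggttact
Gm41607, chr17:63604743-63605042, minus strand: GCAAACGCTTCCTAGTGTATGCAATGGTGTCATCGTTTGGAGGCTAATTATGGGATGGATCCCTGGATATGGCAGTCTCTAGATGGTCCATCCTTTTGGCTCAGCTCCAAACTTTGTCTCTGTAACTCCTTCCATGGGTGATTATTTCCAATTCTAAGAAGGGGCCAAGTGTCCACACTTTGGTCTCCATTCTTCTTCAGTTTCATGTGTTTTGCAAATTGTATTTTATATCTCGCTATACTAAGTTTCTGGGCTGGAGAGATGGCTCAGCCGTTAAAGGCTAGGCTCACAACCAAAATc
Gm32144, chr19:56255300-56255599, minus strand: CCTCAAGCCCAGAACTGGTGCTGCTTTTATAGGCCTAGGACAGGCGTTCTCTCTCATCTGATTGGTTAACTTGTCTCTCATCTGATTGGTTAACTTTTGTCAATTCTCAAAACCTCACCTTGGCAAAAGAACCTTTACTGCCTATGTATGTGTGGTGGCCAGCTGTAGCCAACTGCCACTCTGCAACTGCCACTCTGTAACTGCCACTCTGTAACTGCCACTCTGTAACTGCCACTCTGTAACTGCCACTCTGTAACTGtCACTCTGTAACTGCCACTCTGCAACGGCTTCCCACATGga
Gm52520, chr2:85788375-85788674, plus strand: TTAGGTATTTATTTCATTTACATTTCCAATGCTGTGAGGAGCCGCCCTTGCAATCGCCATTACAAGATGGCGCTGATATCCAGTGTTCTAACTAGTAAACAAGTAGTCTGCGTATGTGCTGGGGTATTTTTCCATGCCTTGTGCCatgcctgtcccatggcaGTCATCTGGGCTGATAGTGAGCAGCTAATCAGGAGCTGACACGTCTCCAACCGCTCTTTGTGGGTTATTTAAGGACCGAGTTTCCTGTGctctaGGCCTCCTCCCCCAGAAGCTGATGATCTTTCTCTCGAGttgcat

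Capitals covered 285 of the 300 bases in *Gm33219*, 299 in *Gm41607*, 297 in *Gm32144* and 272 in *Gm52520*. The commonest single word of the *Gm33219* window occurred at 42191 places and that of *Gm41607* at 30425 places. In *Gm32144* the commonest word occurred at 1094 places, and the window as a whole had 6 matches of at least 95% identity over 285 bases. The *Gm52520*, *Gm33219* and *Gm41607* windows had 1 such match each, their own, so as whole sequences they occur once. Reads that aligned to several places, 14.6% to 15.6% of the reads in the tables, are outside the gene counts, and how many of them came from these 4 genes was not tested.

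**Figure D1:**
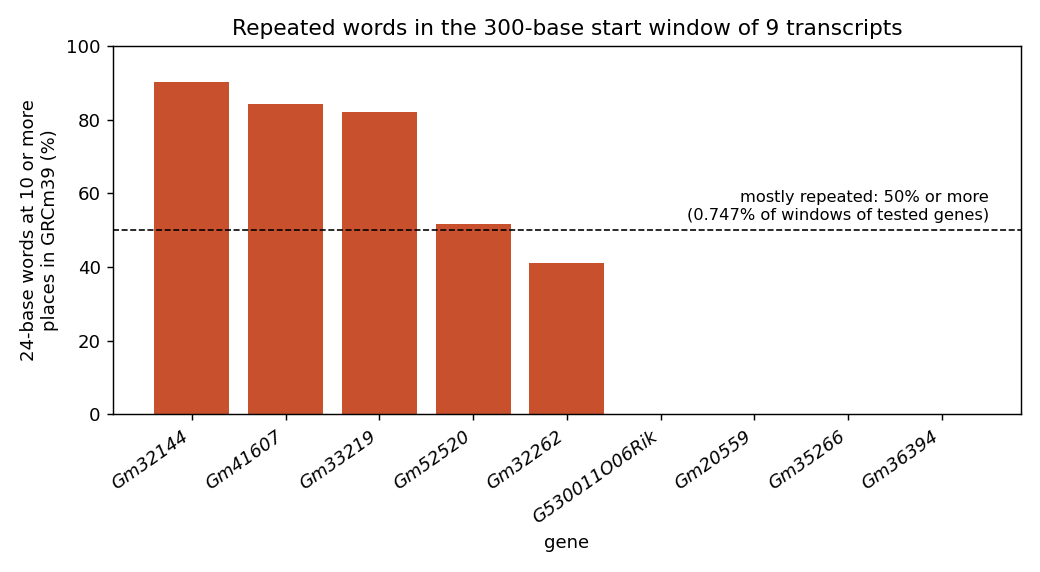
Share of 24-base words that occur at 10 or more places in GRCm39 (vertical axis, percent) in the 300-base start window of the 9 transcripts with a RefSeq window. Bars of *Gm32144*, *Gm41607*, *Gm33219* and *Gm52520* reach the dashed line at 50%, *Gm32262* stands at 41.2%, and 4 windows are at 0%.

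*G530011O06Rik* is listed in RefSeq on both sex chromosomes. Its X window lies in an intron of *Mid1*, a ubiquitin ligase gene which in the mouse crosses the edge of the pseudoautosomal region, the stretch through which X and Y pair in male meiosis. The Y window has 2 exact copies in GRCm39, chrY:90766270-90766569 and chrY:90850626-90850925, and there GENCODE gives the lncRNAs *G530011O06Riky* and *Gm21748*. The X and Y windows are printed because the counts of this gene, the one with the largest fold change of the 10, cannot be assigned to X or Y from a single symbol. Capitals mark bases that do not match in the alignment of the 2 windows.
G530011O06Rik, chrX:168761864-168762163, minus strand: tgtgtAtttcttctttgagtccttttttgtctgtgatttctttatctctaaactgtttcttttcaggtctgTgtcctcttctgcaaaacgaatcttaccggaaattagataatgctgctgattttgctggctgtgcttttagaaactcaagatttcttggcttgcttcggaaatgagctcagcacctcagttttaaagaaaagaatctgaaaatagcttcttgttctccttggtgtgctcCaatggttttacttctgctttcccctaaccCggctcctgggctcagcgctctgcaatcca
G530011O06Rik, chrY:90766270-90766569, minus strand: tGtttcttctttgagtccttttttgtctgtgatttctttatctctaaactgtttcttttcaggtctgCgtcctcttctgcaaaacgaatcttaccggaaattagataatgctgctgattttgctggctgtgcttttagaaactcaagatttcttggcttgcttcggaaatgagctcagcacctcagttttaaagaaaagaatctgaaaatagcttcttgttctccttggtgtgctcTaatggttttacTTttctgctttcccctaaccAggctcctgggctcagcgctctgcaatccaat

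The windows shared 292 aligned bases, and 4 bases of the X window and 6 of the Y window were unmatched inside the alignment. Copies this alike limit which reads align uniquely. Whether the reads came from X, from Y or from both was not tested.

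The windows were searched on both strands for the CCAAT box (CCAAT), the TATA box in the form TATAAA, the GC box in the form GGGCGG and the cyclic AMP response element in the form TGACGTCA, which are known from promoters. None of the 4 contains another. CCAAT was in 9 of 9 first-listed windows, against 37.9% of all 27025 RefSeq windows and 38.3% of those of tested genes. The other listed window of *Gm36394* did not hold it. In *G530011O06Rik* the X window held it before the start and the Y window only after the start. TATAAA was in 5 of 9 (*Gm35266*, *Gm20559*, *Gm33219*, *Gm41607* and *Gm32144*), against 14.2% and 8%. GGGCGG was in 2 of 9 (*Gm52520* and *Gm33219*), against 35.9% and 57.6%, and TGACGTCA was in none, against 1.88% and 2.77%. The median G and C content of the 9 windows was 47.7%, below that of the windows of tested genes (59.7%) and of other tested uncharacterised genes (53.8%). Motif, base content and repetition are not separate features, since repeats carry their own letters. The window of *Gm20559* held no words counted as repeated by the measure above, but its median word occurred at 2 places and its commonest at 3. As a whole this window had 2 matches of at least 95% identity over 285 bases, its own among them. How far the other match limited which *Gm20559* reads align uniquely was not tested. The *Gm20559* window is printed with TATAAA and CCAAT (read on the other strand) in capitals.
Gm20559, chr6:3346092-3346391, minus strand: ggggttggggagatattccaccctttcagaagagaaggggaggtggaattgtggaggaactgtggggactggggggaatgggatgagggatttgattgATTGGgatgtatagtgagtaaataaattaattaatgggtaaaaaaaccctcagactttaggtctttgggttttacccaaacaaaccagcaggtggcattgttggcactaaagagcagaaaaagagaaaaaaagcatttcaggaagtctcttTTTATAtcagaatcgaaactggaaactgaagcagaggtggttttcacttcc

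In this window the reversed TATAAA lies across the start itself and the reversed CCAAT lies well upstream. The letters are a description of the window and not evidence of a bound factor. For the GAA-rich letters that Tra2b is known to bind, a transcript was at hand for a pair of the genes. GAAGAA occurred 3 times in 2993 bases of *Gm20559* (1.0 per kb) and 2 times in 3142 bases of *Gm33869* (0.637 per kb). For comparison, 37268 GENCODE genes had a longest transcript typed as lncRNA, retained intron or still to be tested. Their median was 0.371 per kb, with 52.2% holding at least 1. The median length of those transcripts was 920 bases, shorter than the pair, so the shares are not matched for length.

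Libraries held 36757386 to 59101569 counts on genes, and 19104 genes passed edgeR's filter on low counts, the 10 among them. Over all genes 30 were called at a Benjamini-Hochberg adjusted p under 0.05 by edgeR's quasi-likelihood test, which is 0.157%, and 25 of them (0.131%) were higher and 5 (0.0262%) lower in the mutant. *Tra2b* itself had 158, 166, 156 and 176 CPM (counts scaled to the same library total in each mouse) in wild type A to D and 200, 190, 192 and 209 in *Tra2b-cPEko* A to D. Its log2 fold change was 0.27 ± 0.05 (SE), with an adjusted p of 0.0552 by edgeR and of 0.000195 by DESeq2. Counts of the whole gene do not show whether the poison exon was removed. *Tra2b-cPEko* replicate C stood apart in a list of 6 epididymal genes, with a summed 140 CPM against 0.136 to 0.682 in the other 7 libraries. Without that mouse the log2 fold changes of the 10 genes ran from 0.42 to 3.72, and the largest fall of any was 0.16 (*Gm52520*). The summed level of 5 nuclear noncoding RNAs, a sign of RNA quality or of nuclear RNA content, was 737 to 831 CPM in wild type testes. In *Tra2b-cPEko* testes it was 909 to 1094 CPM, without overlap. Of the 4 of these genes that were tested edgeR called 2 higher, where it called 0.131% of all genes higher. The part of these RNAs in the results was not tested. The summed levels of the germ, Sertoli, Leydig, stromal, endothelial and macrophage markers overlapped between the genotypes, with none of the markers at 0, but some lists leaned one way. Of the 8 macrophage markers 5 had an unadjusted p under 0.05 by edgeR, where 15.3% of all genes did. The macrophage list had a median log2 fold change of 0.26. Its sums were 138 to 173 CPM in wild type and 173 to 206 CPM in the mutant, which overlapped narrowly. Of the 5 markers of differentiating spermatogonia edgeR called 1 lower. The median log2 fold change was 0.43 over the 6 Leydig markers and -1.16 over the 6 pachytene markers tested, with none called. Over the 5 red blood cell markers it was -0.54, with none called and sums that overlapped. The part of these cell types in the results was not tested.

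Levels of the 10 genes are given in CPM after TMM scaling, which corrects library size and composition, and fold changes come from the edgeR fit with 4 mice a genotype. CPM does not correct for transcript length, so levels are compared between mice and not between genes. The sum over the 10 genes was 65.9 to 74.3 CPM in wild type and 101 to 114 CPM in *Tra2b-cPEko* testes. In all 10 the lowest *Tra2b-cPEko* mouse stood above the highest wild type mouse, which 4.36% of genes tested did (8.54% did so in either direction). The listing used this contrast, so nothing is read from this count. Log2 fold changes ran from 0.43 to 3.59 with a median of 1.15. With any 1 mouse left out the log2 fold change of *Gm32262* stayed between 0.38 and 0.49 and that of *G530011O06Rik* between 3.25 and 3.93.

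**Figure D2:**
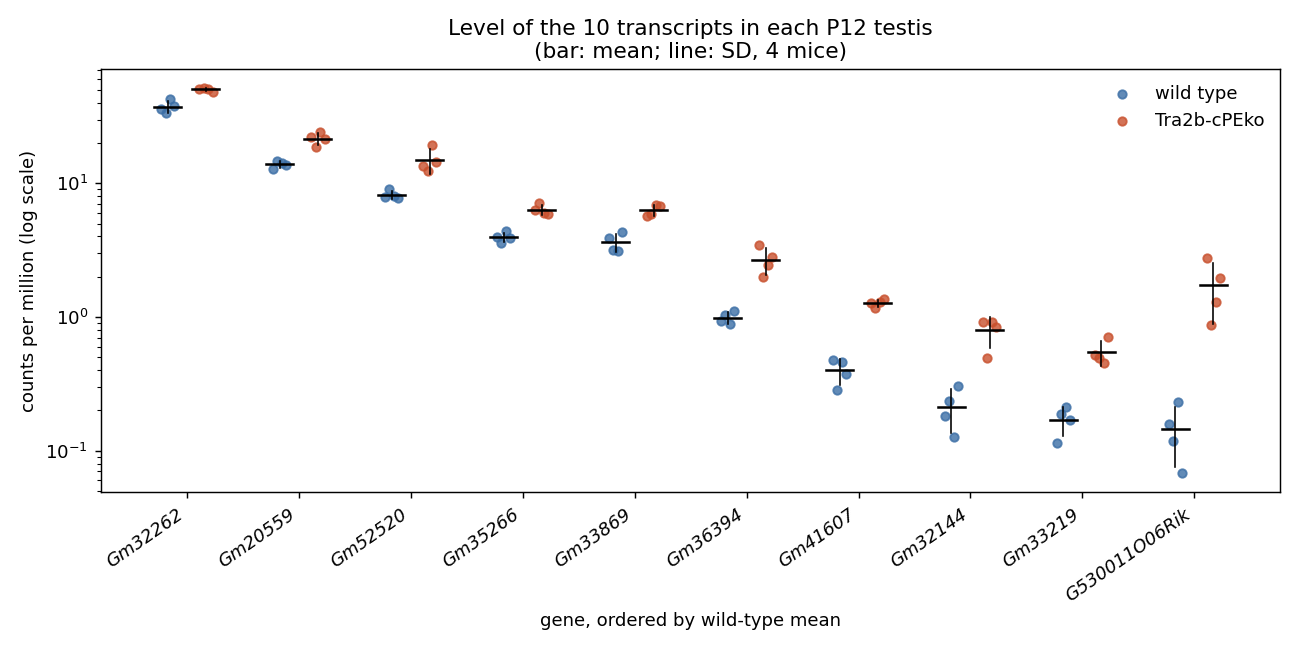
Level of the 10 transcripts in each mouse, in CPM on a log axis, with wild type in blue on the left and *Tra2b-cPEko* in red on the right (4 mice each), with the mean (bar) and SD (line). In each gene the *Tra2b-cPEko* points lie above the wild type points, with the widest gap in *G530011O06Rik* and the narrowest in *Gm32262*.

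A group of 4 genes lies inside a protein-coding gene on the same strand. *Gm35266* starts in an intron of *Sestd1* (chr2:77036494-77036793 holds its start window), which encodes a protein with a lipid-binding domain and spectrin repeats. *Gm35266* had 3.96, 3.57, 4.38 and 3.90 CPM in wild type A to D and 6.35, 7.11, 5.99 and 5.91 CPM in *Tra2b-cPEko* A to D. The mice of each genotype were close together, with a coefficient of variation (CV, the SD over the mean) of 8.36% and 8.65%, and the log2 fold change was 0.68 ± 0.10.

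*Gm33219* starts in an intron of *Jazf1*, a zinc finger gene. It had 0.113, 0.189, 0.210 and 0.169 CPM in wild type A to D, which are 5 to 10 counts, and 0.521, 0.490, 0.449 and 0.708 CPM in *Tra2b-cPEko* A to D, which are 18 to 26 counts. So few counts leave wide counting error for a single mouse, and the log2 fold change was 1.64 ± 0.27.

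*Gm41607* starts in an intron of *Fbxl17*, which encodes an F-box protein that brings substrates to a ubiquitin ligase. It had 0.475, 0.284, 0.463 and 0.373 CPM in wild type and 1.26, 1.17, 1.28 and 1.36 CPM in *Tra2b-cPEko* mice. The mutant mice were closer to each other (CV 6.17%) than the wild type mice (22.4%), and the log2 fold change was 1.66 ± 0.19. *Gm41607* is the protein-coding gene of the list by its RefSeq type.

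*Gm33869* (chr12:46747858-46750999, minus strand) lies inside *Nova1*, a gene for a neuronal splicing regulator, and GENCODE has exons of both genes that overlap. It had 3.91, 3.19, 3.11 and 4.29 CPM in wild type and 5.67, 5.88, 6.82 and 6.73 CPM in *Tra2b-cPEko* mice, a log2 fold change of 0.79 ± 0.13. On a shared strand, counting sets aside reads that hit exons of both genes as ambiguous, and ambiguous reads were 0.468% to 0.636% of the reads in the tables.

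Another 3 genes lie opposite to or across a gene on the other strand. *G530011O06Rik* lies against *Mid1*. It had 0.158, 0.118, 0.231 and 0.0678 CPM in wild type A to D (4 to 11 counts) and 2.77, 0.872, 1.28 and 1.96 CPM in *Tra2b-cPEko* A to D (32 to 138 counts). The 4 mutant mice spread over 3.17-fold, and the lowest of them was 3.77-fold above the highest wild type mouse. The log2 fold change was 3.59 ± 0.44, and the ratio of means was 12.0. Within a genotype this gene varied most, with a CV of 48.0% among wild type and 48.2% among mutant mice.

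*Gm32262* starts on the X chromosome (chrX:101423471-101423770) in an intron of *Hdac8*, a histone deacetylase gene on the other strand, and of the lncRNA *Gm14858* on its own strand. It had 36.0, 33.6, 42.7 and 37.6 CPM in wild type and 50.3, 51.8, 50.9 and 48.5 CPM in *Tra2b-cPEko* mice. This was the smallest fold change of the list, 0.43 ± 0.07 on the log2 scale, and also the narrowest gap, with the lowest mutant mouse 1.14-fold above the highest wild type mouse. The mutant mice were the closest to each other of any gene listed (CV 2.76%).

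*Gm36394* has its start (chr19:8598672-8598971) across an exon of *Slc22a6* on the other strand, and in the RefSeq table its span overlaps *Slc22a8*. Both genes encode organic anion transporters known from the kidney. *Gm36394* had 0.928, 1.04, 0.884 and 1.10 CPM in wild type and 3.47, 1.99, 2.44 and 2.81 CPM in *Tra2b-cPEko* mice, a log2 fold change of 1.44 ± 0.18. *Slc22a6* itself had 0, 1, 0 and 0 counts in wild type and 1, 0, 2 and 0 counts in *Tra2b-cPEko* mice and did not pass the filter, so the transcript beside it was counted in every mouse where the transporter was near 0.

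The last 3 genes lie outside protein-coding genes. *Gm20559* (GENCODE chr6:3333191-3346140, minus strand) had 12.9, 14.6, 14.2 and 13.6 CPM in wild type and 22.3, 18.8, 24.1 and 21.3 CPM in *Tra2b-cPEko* mice, a log2 fold change of 0.65 ± 0.08. *Gm52520* starts next to olfactory receptor genes on chromosome 2. It had 7.85, 9.08, 8.04 and 7.81 CPM in wild type and 13.6, 12.4, 19.5 and 14.4 CPM in *Tra2b-cPEko* mice, a log2 fold change of 0.87 ± 0.13. Mutant C was the highest for both genes, and *Gm52520* varied more in the mutant (CV 20.9%) than in wild type (7.32%). *Gm32144* starts in an intron of an uncharacterised lncRNA of GENCODE. It had 0.181, 0.237, 0.126 and 0.305 CPM in wild type, which are 6 to 18 counts, and 0.922, 0.490, 0.919 and 0.844 CPM in *Tra2b-cPEko* mice, which are 18 to 46 counts, with a log2 fold change of 1.88 ± 0.29.

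No mouse was high in every gene. *Tra2b-cPEko* B was the lowest mutant mouse in 6 of the 10 genes and the highest in 2, and *Tra2b-cPEko* A was the highest in 3 and the lowest in 1. After the mean of each genotype was removed, the 45 pairs of genes had a median Pearson r of -0.02 over the 8 mice, from -0.80 to 0.83, and 22 were above 0. The median over all pairs of genes tested was -0.001, so the median pair of listed genes was close to the median pair of any genes. The gene-wise biological coefficient of variation was below the trend for its level in 7 of 10, against 75.2% of genes tested. For each of the 6 genes whose mean reached 1 CPM, the 2 genes most alike over the 8 mice were *Castor1* and *Ttc36* (*Gm20559*), *Ddx49* and *Pak1ip1* (*Gm36394*), *Wnk2* and *Brms1l* (*Gm52520*), *Ccn4* and *Thrb* (*Gm35266*), *Zfp609* and *Ctps2* (*Gm32262*), and *Ccn1* and *Dlk2* (*Gm33869*). Their r was 0.970 to 0.992, and the best partner of any gene had a median r of 0.985, so such values are what the search over 19104 genes in 8 mice gives. None of the 12 partners had an adjusted p under 0.05 for genotype by edgeR, where 0.157% of all genes did, so nothing is read from this.

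The genes around the 10 were compared to see whether whole stretches of chromosome were higher in the mutant. The listing did not use them. There were 25 tested genes that overlap one of the 10 or are the nearest on either side. None of the 25 was called by edgeR, which called 0.157% of all genes. At an unadjusted p under 0.05 there were 5 of 25, where 15.3% of all genes were, and DESeq2 called 3, where it called 2.79% of the genes it tested. The 7 overlapping genes had log2 fold changes of -0.08 to 0.19 and adjusted p-values of 0.235 to 0.918 by edgeR.

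Among the protein-coding genes that contain a listed gene on the same strand, *Sestd1* had 124, 123, 131 and 126 CPM in wild type and 140, 131, 141 and 135 CPM in *Tra2b-cPEko* mice. The genotypes just missed overlapping, and its log2 fold change was 0.11 ± 0.04 (edgeR, adjusted p = 0.235). *Jazf1* had a log2 fold change of -0.08 ± 0.06 (edgeR, adjusted p = 0.542) and *Fbxl17* one of -0.03 ± 0.04 (edgeR, adjusted p = 0.775). For *Nova1* it was 0.08 ± 0.08 (edgeR, adjusted p = 0.677). The levels of these containing genes did not pass the test. The listed genes inside them had differences of 0.68 to 1.66, but they were chosen for such a difference. Nothing is therefore read from the gap between the listed and the containing genes.

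On the other strand, *Hdac8* had a log2 fold change of 0.04 ± 0.10 (edgeR, adjusted p = 0.884). *Mid1* varied widely, from 2.44 to 5.73 CPM in wild type and from 3.35 to 5.17 CPM in *Tra2b-cPEko* mice, with overlap, and its log2 fold change was 0.08 ± 0.26 (edgeR, adjusted p = 0.918). *Slc22a8* was at 10 to 16 counts in every mouse.

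Of the genes nearest on either side, *Samd9l*, an interferon-induced gene beside *Gm20559*, had 9.96 to 11.0 CPM in wild type and 12.8 to 14.3 CPM in *Tra2b-cPEko* mice. The genotypes did not overlap, and its log2 fold change was 0.34 ± 0.07, with an adjusted p of 0.0844 by edgeR and of 0.00313 by DESeq2. *Olfr1033*, an olfactory receptor gene beside *Gm52520*, had 16.6 to 19.7 CPM and 21.0 to 23.4 CPM, a log2 fold change of 0.26 ± 0.07 (adjusted p 0.135 by edgeR, 0.0357 by DESeq2). *Gm52904*, beside *Gm33219*, had 22 to 38 counts and 43 to 54 counts, a log2 fold change of 0.91 ± 0.21 (adjusted p 0.101 by edgeR, 0.0423 by DESeq2). *Efna5*, an ephrin ligand gene beside *Gm41607*, went the other way with a log2 fold change of -0.30 ± 0.11 (edgeR, adjusted p = 0.222). The other 11 neighbours on the sides with a mean of at least 1 CPM were *Gm41804*, *Lrrc55*, *Ccdc141*, *Zfp385b*, *Gm15246*, *Phka1*, *Stxbp6*, *Tcf7l2*, *Nrap*, *Gm33097* and *Fer*. Their genotypes overlapped, with log2 fold changes of -0.19 to 0.25 and adjusted p-values of 0.327 to 0.873 by edgeR. In all, 4 of 25 neighbours were higher without overlap, where 4.36% of all genes were.

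**Figure D3:**
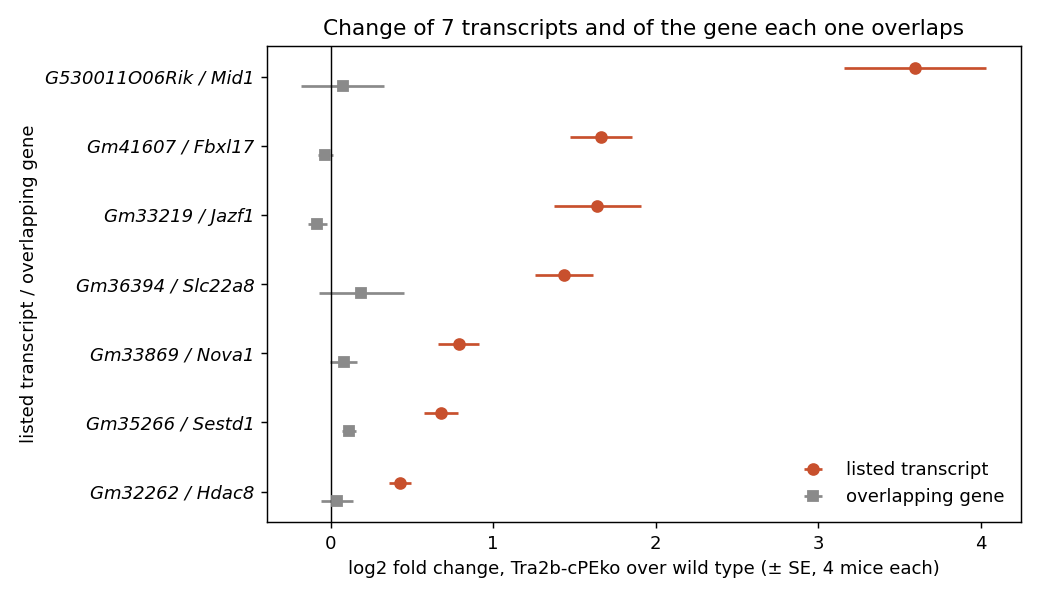
Log2 fold change of *Tra2b-cPEko* over wild type (horizontal axis, ± SE) for 7 listed transcripts (circles) and for the tested gene that each overlaps (squares). The squares lie between -0.08 and 0.19, and the circles between 0.43 and 3.59. The circles are genes chosen for this difference, so nothing is read from the gap.

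The rest of the uncharacterised genes show what kind of genes the 10 are drawn from. With the 10 left out, 3587 tested genes had placeholder symbols, and edgeR called 4 of them higher and none lower. Over all 19094 genes tested with the 10 left out, it called 15 higher and 5 lower. Nothing is read from so few calls. At an unadjusted p under 0.05 (edgeR) 424 were higher (11.8%) and 143 lower (3.99%), while over all genes tested 8.22% were higher and 7.07% lower. Among the 15507 genes with proper names the shares were 7.33% and 7.79%. The median log2 fold change was 0.06 in uncharacterised and -0.01 in named genes. DESeq2 called 81 uncharacterised genes higher and 18 lower, where it called 2.79% of all genes it tested in either direction. Its calls over all genes were not split by direction here. Genes at a low level were compared as well. Of all 3623 genes with a mean under 1 CPM, 8.03% were higher and 4.22% lower. This set includes 1971 uncharacterised genes, of which 9.39% were higher and 3.55% lower, so it does not show low level alone.

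The 4 genes called higher were *Gm5934*, *LOC118568763*, *LOC118568438* and *LOC108167518*. *Gm5934*, typed as protein-coding, had 0.237 to 0.442 CPM in wild type and 0.882 to 0.981 CPM in *Tra2b-cPEko* mice, a log2 fold change of 1.46 ± 0.21 (edgeR, adjusted p = 0.0225). *LOC118568763* had 2.19 to 3.12 and 4.17 to 5.39 CPM, a log2 fold change of 0.81 ± 0.14 (edgeR, adjusted p = 0.0463). *LOC118568438* had 12.8 to 16.1 and 19.9 to 22.1 CPM, a log2 fold change of 0.53 ± 0.08 (edgeR, adjusted p = 0.0329). *LOC108167518*, a lncRNA, had 28.5 to 31.1 and 36.6 to 39.8 CPM, a log2 fold change of 0.31 ± 0.05 (edgeR, adjusted p = 0.0424). In none of the 4 did the genotypes overlap. They were picked by this same contrast, and 8.22% of the 3587 uncharacterised genes were higher without overlap. The calls did not hold in most of the 8 fits without 1 mouse each. They were kept in 3, 1, 3 and 2 fits in the order above, and the highest adjusted p of any was 0.152 (edgeR). Log2 fold changes in those fits were 1.33 to 1.61, 0.71 to 0.87, 0.49 to 0.59 and 0.28 to 0.33 in the same order. Those fits called 3 to 84 genes in all, where the fit with every mouse called 30.

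Position divided the uncharacterised lncRNAs. Of the 9 listed genes with a RefSeq span, 5 lie within the span of another gene, the protein-coding *Gm41607* among them. Of the 2461 other uncharacterised lncRNAs tested, 22.6% do. Among those 2461, the 555 inside another gene had a median log2 fold change of 0.12, with 108 higher (19.5%) and 12 lower (2.16%) at an unadjusted p under 0.05 (edgeR). The 1906 outside had a median of 0.07, with 9.13% higher and 3.36% lower. Where the strand of both genes was known, 100 lay on the same strand as the gene around them and 237 on the other strand. For the other 218 a strand was not known, and their median was 0.13, with 21.1% higher and 1.83% lower. On the same strand the median log2 fold change was 0.29, with 83.0% above 0, and 38 of 100 were higher and none lower at that threshold, although edgeR called 1 of them after adjustment (*LOC108167518*). On the other strand the median was 0.06, with 10.1% higher and 3.38% lower. Named genes inside another gene had a median of 0.01, with 6.90% higher and 5.36% lower.

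The genes around the 100 same-strand lncRNAs showed no such shift. Of 96 that were tested the median log2 fold change was -0.01, while that of the lncRNAs inside them was 0.29. None of the 96 was called by edgeR, which called 0.157% of all genes. By mouse, the median deviation of the 100 from their means over the 8 mice (log2 CPM) was -0.14, -0.15, -0.14 and -0.13 in wild type A to D and 0.05, 0.21, 0.21 and 0.16 in *Tra2b-cPEko* A to D. The wild type mice lay close together, and mutant A was the nearest to them. For the 237 on the other strand the values were -0.06 to 0.01 in wild type and 0.01 to 0.08 in *Tra2b-cPEko* mice. Over the normalizations, tools, filters and mice left out, the median of the same-strand class stayed between 0.21 and 0.32 and the share higher between 28% and 40%, with 0% lower. Genes of a class are not replicates, the division by strand was made after the data were seen, and no test of the class was made. Counts per gene do not tell a lncRNA from unspliced RNA of the gene around it on the same strand, and which of these was counted was not tested. The summed nuclear noncoding RNAs given above, *Malat1* among them, were also higher in the mutant, and a link between them and this class was not tested. Of the listed genes, the lncRNAs *Gm35266* and *Gm33219* have this position, as do *Gm41607*, typed as protein-coding, and, in GENCODE, *Gm33869*. The starts of *Gm32262* and *Gm32144* also lie in introns of GENCODE lncRNAs on their own strand, but GENCODE does not hold the spans of these listed genes.

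**Figure D4:**
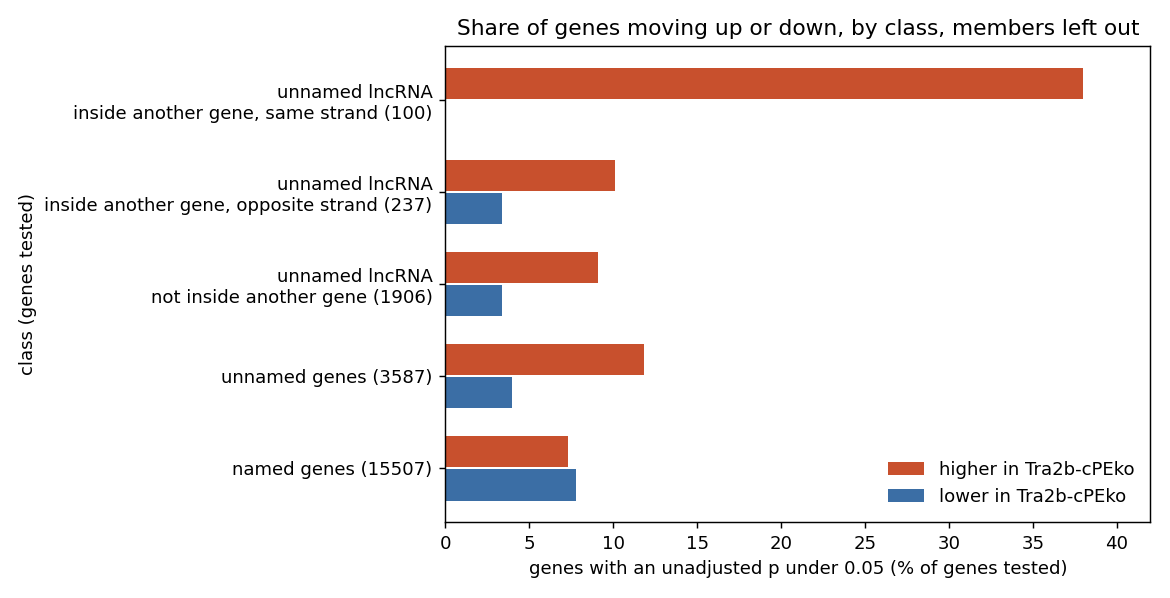
Share of genes with an unadjusted p under 0.05 (horizontal axis, percent of genes tested) that were higher (red) or lower (blue) in *Tra2b-cPEko* testes, by class with the 10 listed genes left out. The upper bar reaches 38.0% for uncharacterised lncRNAs inside another gene on its strand, with no lower gene, while named genes are near balance at 7.33% and 7.79%.

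**Figure D5:**
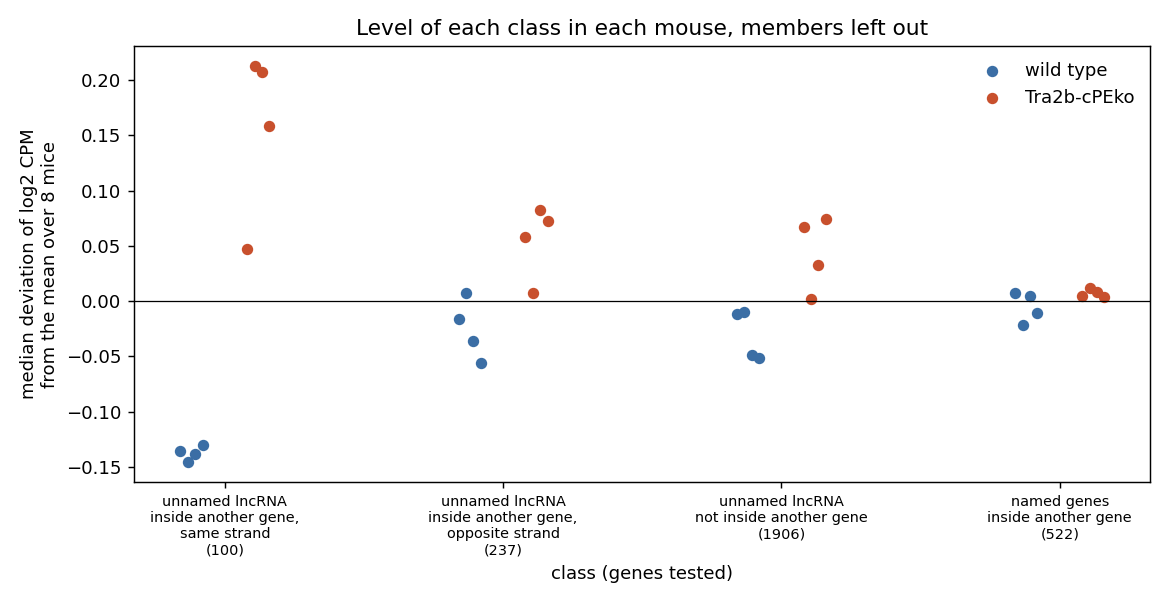
Median over each class of the deviation of log2 CPM from a gene's mean over 8 mice (vertical axis), 1 point a mouse, wild type in blue and *Tra2b-cPEko* in red. In the same-strand class the mutant mice lie at 0.05 to 0.21 and the wild type mice at -0.15 to -0.13, and the points of named genes inside another gene lie between -0.02 and 0.01.

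Start windows and chromosome were compared as well. The 88 other uncharacterised genes tested with a mostly repeated window had a median log2 fold change of 0.16, with 15 higher and 3 lower at an unadjusted p under 0.05 (edgeR). The 2234 without had a median of 0.06, with 10.5% higher and 3.89% lower. Uncharacterised genes on the X chromosome, which carries *Gm32262* and a copy of *G530011O06Rik*, had a median of 0.03 over 123 genes, with 10.6% higher and 5.69% lower. These shares were not tested against each other.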

How the data were processed

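Total RNA of whole testes was made into libraries with a stranded mRNA kit. The authors deposited 8 tables of raw counts per gene, 1 per mouse, with 5 summary lines of the form htseq-count writes, which were left out of library sizes and tests. The submitters' processing notes name HISAT2 2.2.1, SAMtools 1.7.1, HTSeq 2.0.2, deepTools 3.5.1 and GRCm39. The study's methods also name Salmon, and whether counting used strand is not given in the sources used here.

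Counts were fitted in R 4.3.3 with edgeR 4.0.16 (filterByExpr with a least count of 10 and a least total of 15, TMM, glmQLFit with robust estimation, glmQLFTest), with no term but genotype and a Benjamini-Hochberg adjusted p under 0.05 as the call. The study used DESeq2, run here as an alternative (1.42.0), beside limma-voom (limma 3.58.1), other scaling factors and filters, the replicate letter as a block and fits without each mouse. P-values measure the spread between these mice, which the methods call independent. On counts simulated for this comparison, edgeR recovered 82.2% of genes changed by 1 on the log2 scale and 55.8% of those changed by 0.5.

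The genes named are the 10 listed, *Tra2b*, every tested gene that overlaps one of them or lies nearest to it on either side, described where its mean was at least 1 CPM, the 2 most alike genes for each listed gene with a mean of at least 1 CPM, and the uncharacterised genes called with the largest fold change. *Slc22a6*, *Slc22a8* and *Gm52904* were added after their values were seen. *Malat1* is named because the paper reports on it. The listed genes and marker lists were chosen with earlier results of these data known. The measure of repeated words and the division of lncRNAs by position and strand were added after the data were seen. Log2 CPM used a prior count of 2. Start windows and gene types came from RefSeq tables (GRCm38.p6), and positions came from exact matches in GRCm39 and GENCODE vM39. Window copies were counted with BLAST+ 2.17.0 (at least 80% identity over 100 bases, or 95% over 285). Scripts ran in Python 3.11.15. Where a gene lay within several, the smallest one around it was used.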

Additional observations from a re-analysis of the deposited data

Results flagged for a closer look

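Among 104 groups of 4 mice examined for a single far value, 3 were flagged, where chance gives about 5.2. *Gm41804*, the gene nearest to *Gm36394* at lower coordinate, had 1.44 CPM in wild type D and 2.17 to 2.29 CPM in the other wild type mice. *Stxbp6*, beside *Gm33869*, had 47.8 CPM in wild type C and 40.0 to 41.2 CPM in the others. *LOC108167518* had 28.5 CPM in wild type C and 30.9 to 31.1 CPM in the others. None of the 10 listed genes was flagged.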

How the results depend on the processing

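The log2 fold changes of the 10 listed genes were above 0 in all 146 alternative values and within 1 SD of the reported ones. The genes were chosen on these same counts, so their staying above 0 is a description and not a test. Counts of calls moved with the settings. With 30 genes called in all, upper-quartile factors gave 58, DESeq2 507, testing without a filter 123, keeping mean counts of 50 or more 14, and an adjusted p under 0.1 gave 156, with 3 to 84 when 1 mouse was left out. With 4 uncharacterised genes called higher, the same settings gave 20, 81, 32, 1 and 45, with 0 to 13 without 1 mouse. With 0 called lower (143 at an unadjusted p under 0.05 by edgeR), DESeq2 gave 18, no filter 4 and the 0.1 threshold 5, with 0 to 1 without 1 mouse. With 0 neighbours called by edgeR (5 at an unadjusted p under 0.05), DESeq2 gave 3 and the 0.1 threshold 1, with 0 to 0 without 1 mouse. The mean count filter removed 4 of the listed genes. The cause of these differences was not tested. The replicate letters did not pair the mice (r of deviations between same-letter mice 0.03, -0.14, -0.04 and 0.12 for A to D); with the replicate block edgeR called 67 genes, 9 uncharacterised genes higher and 2 lower and no neighbour. Counting depth limits *Gm33219*, *Gm32144* and *G530011O06Rik* most, with 4 to 18 counts per wild type mouse.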
